A study of Homo sapiens with 12 samples.

Results

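The report covers 35 genes of sugar breakdown and of the response to low oxygen, out of 58051 genes listed in the count table. They were taken by symbol, and all 35 were found and passed the filter on low counts in every comparison. They fall into 19 genes of glucose and lactate transport and the glycolytic enzymes, 3 regulators of the glycolytic flux, and 13 other targets of the hypoxia-inducible factors. RNA was measured in MDA-MB-231, an established triple-negative breast cancer cell line, by sequencing of total RNA after removal of ribosomal RNA. The cells were transfected with 50 to 100 nM siRNA in 4 groups of 3 libraries. siControl received a non-targeting pool, siNELFA a pool against NELFA, siYAP a pool against YAP1, and siNELFA+siYAP both pools together. NELFA encodes a subunit of the negative elongation factor, which holds RNA polymerase II near promoters, and YAP1 encodes a transcriptional coactivator of the Hippo pathway. The methods give RNA taken at 72 h, and the labels name 48 h and 72 h without saying which library is which. The labels give a single standard culture condition for all groups and name no hypoxic culture. All libraries come from a single cell line, and siRNA pools lower a transcript without removing the gene.

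Glycolysis turns glucose into pyruvate in the cytosol, and cancer cells often pass much of that pyruvate on to lactate even where oxygen is present. The hypoxia-inducible factors (HIF) are dimers of an oxygen-labile alpha subunit, such as HIF1A or EPAS1, with ARNT. Where oxygen is scarce the alpha subunit escapes hydroxylation and degradation, and the dimer binds a short core in DNA near genes for glucose uptake, glycolysis, acid export, vessel growth and mitophagy. Many glycolytic genes are therefore HIF targets themselves, and SLC2A1, PGK1, LDHA and BNIP3 are textbook examples.

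The stretches before the start sites of those 4 genes are shown because they let the HIF core be seen next to the genes whose levels follow. The core was searched as ACGTG and as GCGTG on both strands, so that CACGT and CACGC are the same letters on the other strand, and matches are in capitals. CACGTG holds a match on each strand and counts as 2. It is also the sequence of an E-box, the site of MYC-family and related factors. The sequences are RefSeq's on GRCh38.p14, written 5′ to 3′ on the strand of the gene, and were cut to the part that overlaps no annotated exon. SLC2A1 (chr1:42958894-42959048, minus strand) has 0 matches in 155 bases, PGK1 (chrX:78103998-78104247, plus strand) has 3 in 250 bases, LDHA (chr11:18394313-18394559, plus strand) has 5 in 247 bases, and BNIP3 (chr10:131981968-131982173, minus strand) has 6 in 206 bases.
SLC2A1: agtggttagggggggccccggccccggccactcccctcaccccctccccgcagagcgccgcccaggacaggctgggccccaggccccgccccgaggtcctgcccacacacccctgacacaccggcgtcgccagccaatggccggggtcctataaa
PGK1: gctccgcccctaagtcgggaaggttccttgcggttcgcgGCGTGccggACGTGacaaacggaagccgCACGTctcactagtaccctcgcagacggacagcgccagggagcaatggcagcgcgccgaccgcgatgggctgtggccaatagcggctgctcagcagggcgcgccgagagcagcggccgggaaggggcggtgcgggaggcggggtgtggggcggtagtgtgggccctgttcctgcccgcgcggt
LDHA: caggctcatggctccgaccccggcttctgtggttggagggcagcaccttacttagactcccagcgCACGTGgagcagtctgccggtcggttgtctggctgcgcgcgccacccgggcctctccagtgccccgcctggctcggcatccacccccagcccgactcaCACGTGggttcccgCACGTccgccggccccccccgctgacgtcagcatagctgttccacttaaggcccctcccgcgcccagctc
BNIP3: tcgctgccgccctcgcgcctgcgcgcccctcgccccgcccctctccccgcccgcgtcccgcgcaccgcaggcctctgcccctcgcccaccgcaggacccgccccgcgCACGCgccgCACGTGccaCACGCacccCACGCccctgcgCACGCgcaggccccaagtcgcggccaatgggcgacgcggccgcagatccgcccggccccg
Windows of 250 bases before a start were at hand for 31 members, and SLC2A3, VEGFA, NDRG1 and BNIP3L were not matched. At least 1 window held a match in 26 of the 31 (83.9%), against 47.4% of 27305 genes with a window. Counted by window, the shares were 60.3% of 58 and 43.2% of 35116. A gene with several windows has more chances of a match, and base composition was not allowed for. The members were also listed in part as HIF targets, so these shares are a description only. EGLN3, P4HA2, PGAM1, PKM and SLC2A1 had no match in theirs.

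Depth ran from 9608145 to 18803104 counts per library. The replicate 1 libraries of siControl, siNELFA and siYAP stood apart from all others. MALAT1, a nuclear noncoding RNA, took 3.271 to 4.644% of their counts against 0.7385 to 1.067% in the other 9 libraries. The counts of the 3 siNELFA+siYAP libraries lay closer together than those of any other group, with a biological coefficient of variation of 0.0596 against 0.306 to 0.327. They still differed by more than sampling noise, with a chi-square per degree of freedom of 2.78 to 14.3 between pairs of them. Replicates 2 and 3 of siControl, siNELFA and siYAP differed by 17.9, 14.6 and 11.3 on that measure. Pairs with replicate 1 in those groups differed by 80.9 to 115. The siNELFA+siYAP library names carry a single number with an index, while the methods speak of independent replicates. The p-values of the siNELFA+siYAP group may therefore measure technical spread. In bulk RNA, a lower level in every cell and fewer cells that carry a transcript cannot be told apart. Of the markers of the line, the mesenchymal VIM was at 749.7 to 1181 TPM (transcripts scaled to a common total), and ESR1, PGR and ALB were at 0 to 6, 0 to 4 and 0 counts in the 12 libraries. CDH1, the epithelial cadherin that this line is known to lack, went against the label in the libraries that stood apart, with 230 counts in siControl replicate 1, 599 in siNELFA replicate 1 and 169 in siYAP replicate 1 against 0 to 17 in the other 9.

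Both siRNA targets were low where their siRNA was given. NELFA stood at 25.3, 27.7 and 28.1 (siControl), 9.88, 9.12 and 7.13 (siNELFA), 33.2, 24.97 and 22.3 (siYAP) and 8.13, 6.72 and 6.33 (siNELFA+siYAP), in read counts scaled to a common total after TMM normalization (CPM, replicates 1 to 3 in order, as in all lists that follow). It was at 32.4% of control in siNELFA and at 26.1% in siNELFA+siYAP. YAP1 stood at 302, 270.4 and 248 (siControl), 289.7, 249 and 254 (siNELFA), 45.4, 45 and 37.8 (siYAP) and 43.8, 40.7 and 40 (siNELFA+siYAP), which is 15.7% and 15.1% of control in the 2 groups that received its siRNA. Neither group overlapped siControl for its target. NELFA in siNELFA differed by -1.63 ± 0.21 on the log2 scale, which missed the adjusted threshold without a block for replicate number (edgeR adjusted p = 0.381) and passed it with the block (edgeR adjusted p = 0.000385). In siNELFA+siYAP it passed without the block and missed with it (edgeR adjusted p = 0.0199 and 0.151).

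The glycolytic enzymes were among the abundant transcripts of these cells. On the TPM scale, which allows for transcript length, GAPDH, the glyceraldehyde phosphate dehydrogenase, averaged 1707 over the 12 libraries, LDHA, which makes lactate, 1206, and PKM, which makes pyruvate, 1013. ALDOA and ENO1 followed at 875 and 790.0 TPM. Of paralogous enzymes, ALDOC averaged 9.05 TPM, ENO2 66.0, and HK2 24.0 against 135 for HK1. The glucose transporter SLC2A1 averaged 194 TPM and its relative SLC2A3 55.3. Among the regulators PFKFB3 was most abundant at 28.8 TPM, and among the other HIF targets VEGFA at 293 and NDRG1 at 292.7 were level, ahead of DDIT4 at 111. CA9 at 6.26 TPM and ANKRD37 at 3.32 TPM were the least abundant members. CA9 had 16 to 151 counts per library and ANKRD37 14 to 62, the fewest among the members.

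**Figure D1:**
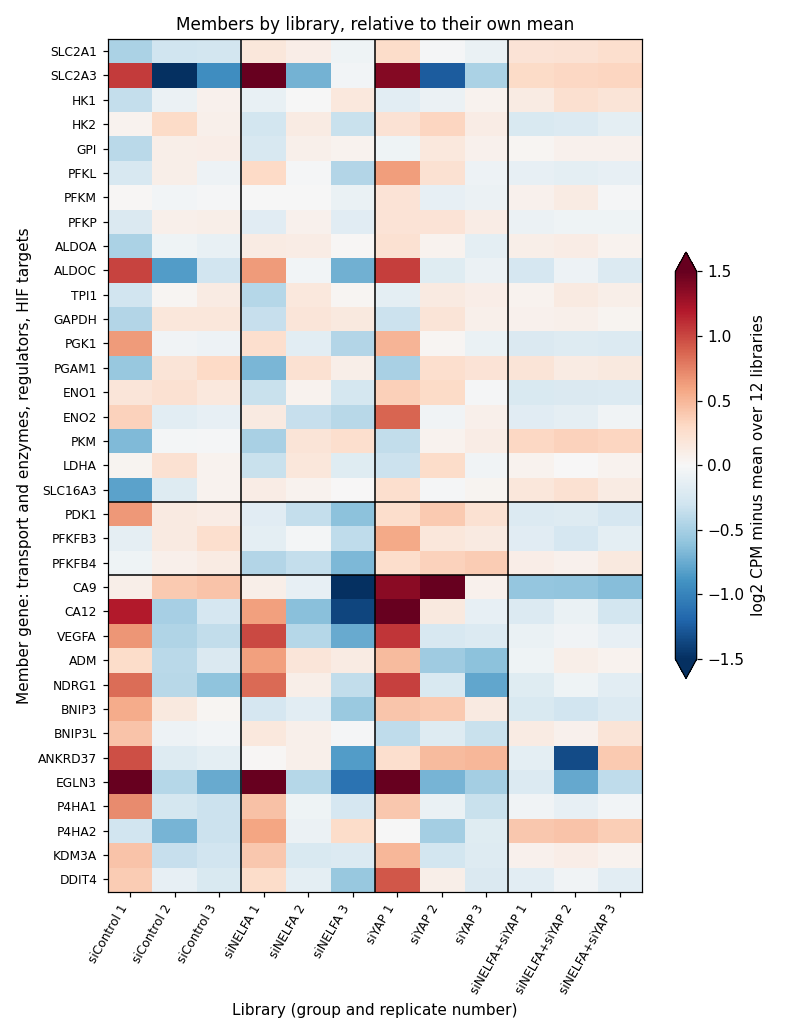
Level of the 35 members (rows, by role) in the 12 libraries (columns), as log2 CPM minus the member's mean over all libraries, with red above and blue below that mean and colours capped at 1.5 in either direction. Most HIF targets are red in the replicate 1 columns of siControl, siNELFA and siYAP, and the siNELFA+siYAP columns are nearly alike.

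The first comparison asked what loss of the pausing factor subunit NELFA did to these genes. In the fit without a block, no member passed an adjusted p of 0.05 (0 of 35, against 0.00564% of 17727 genes tested), and 5 members passed a nominal p of 0.05 (14.3%, against 4.46% of all genes). SLC2A1 and P4HA2 were the higher ones (2.25% of all genes) and PDK1, PFKFB4 and BNIP3 the lower (2.21%). The replicate numbers pair the libraries of siControl, siNELFA and siYAP. Blocked on that number, 7 members passed the adjusted threshold (20%, against 5.21% of all genes). With that block the transporters SLC2A1 and SLC2A3 and the collagen prolyl hydroxylase P4HA2 rose, and the enolase ENO1, the kinases PDK1 and PFKFB4 and the mitophagy receptor BNIP3 fell. The median log2 difference over the 35 members was -0.04 without the block, with 14 higher and 21 lower, and that of all genes tested was 8.02e-05.

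SLC2A1 (chromosome 1, 42925353 to 42958893 on GRCh38, minus strand) encodes GLUT1, the main glucose importer of many cancer cells. It stood at 211, 239 and 244 (siControl), 332, 316 and 281 (siNELFA), 356, 291 and 275 (siYAP) and 341, 343 and 351 (siNELFA+siYAP) CPM. All 9 knockdown libraries lay above all 3 siControl libraries in CPM. On the TPM scale siNELFA and siYAP overlapped siControl. Their replicate 3 libraries were at 174 and 170.4 TPM, against 177 in siControl replicate 2. In siNELFA the log2 difference was 0.43 ± 0.15 (SE, n = 3 and 3, edgeR quasi-likelihood adjusted p = 1), and with the block 0.42 ± 0.10 (edgeR adjusted p = 0.0297).

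SLC2A3 (chromosome 12, 7919230 to 8019007, minus strand) encodes GLUT3, a glucose importer of high affinity. Its CPM was 250.2, 38.8 and 63.4 (siControl), 395, 74.3 and 118 (siNELFA), 315, 51 and 87.2 (siYAP) and 148, 150.2 and 152 (siNELFA+siYAP). The spread within siControl, siNELFA and siYAP was wider than any difference between groups, with replicate 1 highest each time, yet siNELFA was above siControl at each of the 3 replicate numbers. Without the block the log2 difference was 0.74 ± 0.83 (edgeR adjusted p = 1), and with it 0.84 ± 0.10 (edgeR adjusted p = 0.00105). The near-identical neighbour SLC2A14 had 9 to 118 counts per library, so a few reads could be assigned to either gene.

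Among the enzymes, ENO1 (chromosome 1, 8861000 to 8879190, minus strand), which makes phosphoenolpyruvate, was the member that fell. It stood at 1311, 1351 and 1287 (siControl), 919, 1200.4 and 962 (siNELFA), 1483, 1403 and 1139 (siYAP) and 983, 989.6 and 1001 (siNELFA+siYAP) CPM, so that all siNELFA and all siNELFA+siYAP libraries were below siControl, while siYAP overlapped it. The log2 difference in siNELFA was -0.35 ± 0.16 (edgeR adjusted p = 1), and with the block -0.36 ± 0.09 (edgeR adjusted p = 0.0399). Of the 19 transport and enzyme genes, 3 were called with the block and 10 passed its nominal threshold, 5 in each direction. Over all 35 members 18 passed the nominal threshold with the block, against 20.2% of all genes. The median of the 19 was -0.02.

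Of the 3 regulators all had a lower mean in siNELFA, and 2 were called with the block. PDK1 (chromosome 2, 172555373 to 172608669, plus strand) encodes a kinase that shuts pyruvate dehydrogenase and so keeps pyruvate out of the mitochondria. Its CPM was 138, 96.8 and 94.8 (siControl), 78.1, 68.9 and 57.6 (siNELFA), 105, 115 and 103 (siYAP) and 76.3, 76.9 and 73.6 (siNELFA+siYAP). All siNELFA and siNELFA+siYAP libraries were below siControl in CPM, and siYAP overlapped it. On the TPM scale siNELFA+siYAP replicate 3, at 22.3, was above siControl replicate 3, at 21.8. In siNELFA the log2 difference was -0.68 ± 0.22 (edgeR adjusted p = 1), or -0.67 ± 0.11 with the block (edgeR adjusted p = 0.00536). PFKFB4 (chromosome 3, 48517684 to 48562015, minus strand), a bifunctional enzyme that sets the level of the phosphofructokinase activator fructose 2,6-bisphosphate, stood at 45.8, 50.6 and 52.1 (siControl), 35.3, 37.3 and 30.04 (siNELFA), 57.3, 60.9 and 62.4 (siYAP) and 51.1, 50.1 and 53.03 (siNELFA+siYAP) CPM. Here siNELFA alone lay below siControl, by -0.53 ± 0.17 on the log2 scale (edgeR adjusted p = 1) and -0.53 ± 0.13 with the block (edgeR adjusted p = 0.0385). PFKFB3, its relative, was at 82.7, 99.9 and 108 (siControl), 82.03, 89.1 and 70 (siNELFA), 134, 102 and 99.99 (siYAP) and 80.5, 76.5 and 81.98 (siNELFA+siYAP) CPM, lower in siNELFA than in siControl at all 3 replicate numbers, with a log2 difference of -0.26 ± 0.17 and an edgeR adjusted p of 0.264 with the block.

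Of the 13 other HIF targets, 2 were called with the block, in opposite directions. P4HA2 (chromosome 5, 132190147 to 132295315, minus strand), a prolyl hydroxylase needed for stable collagen helices, stood at 143, 108 and 140.5 (siControl), 264, 165 and 212 (siNELFA), 175, 123 and 155 (siYAP) and 232, 236 and 227 (siNELFA+siYAP) CPM. All siNELFA and siNELFA+siYAP libraries were above all siControl libraries. The log2 difference in siNELFA was 0.72 ± 0.23 (edgeR adjusted p = 1) and 0.70 ± 0.10 with the block (edgeR adjusted p = 0.00247). BNIP3 (chromosome 10, 131967684 to 131981967, minus strand), whose upstream stretch with 6 matches is printed above, marks mitochondria for removal by autophagy. It stood at 244, 183 and 168 (siControl), 139, 148 and 113 (siNELFA), 221, 218 and 181 (siYAP) and 141, 135 and 143 (siNELFA+siYAP) CPM, lower in all siNELFA and siNELFA+siYAP libraries than in siControl. Its log2 difference in siNELFA was -0.57 ± 0.21 (edgeR adjusted p = 1) and -0.56 ± 0.11 with the block (edgeR adjusted p = 0.0129). Just outside the threshold with the block were ADM, a vasodilator peptide, at 0.43 ± 0.12 (edgeR adjusted p = 0.051), and CA12, a membrane carbonic anhydrase, at -0.60 ± 0.16 (edgeR adjusted p = 0.0531). VEGFA, the vessel growth factor, had -0.003 ± 0.12 with the block, and KDM3A, NDRG1, P4HA1, BNIP3L, EGLN3, DDIT4, ANKRD37 and CA9 were not called.

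In CPM, the siNELFA and siControl libraries did not overlap for 8 members, 3 above and 5 below, which is 22.9% of the members against 12.1% of all genes, of which 6.04% lay above and 6.08% below. CA9 was among the 5 only by 3.891 against 3.899 CPM. On the TPM scale the median of all genes itself moved by -0.19, -0.07 and -0.13 for the siNELFA, siYAP and siNELFA+siYAP comparisons, and the split of the members in siNELFA became 7 higher and 28 lower in place of 14 and 21. SLC2A1, P4HA2, ENO1, PDK1, PFKFB4 and BNIP3 kept their sign in siNELFA in all 14 alternative settings, TPM included, and SLC2A3 turned negative in 1 of them, which left out siNELFA replicate 1. The options of the counting step on strand are not given in the sources used here, so reads of P4HA2 and P4HA2-AS1, PDK1 and PDK1-AS1, PFKFB4 and UCN2, or CA9 and ARHGEF39, which overlap, may not be told apart. ENO1, GAPDH, PGK1, LDHA, PKM and PGAM1 have processed pseudogenes that can share their reads.

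**Figure D2:**
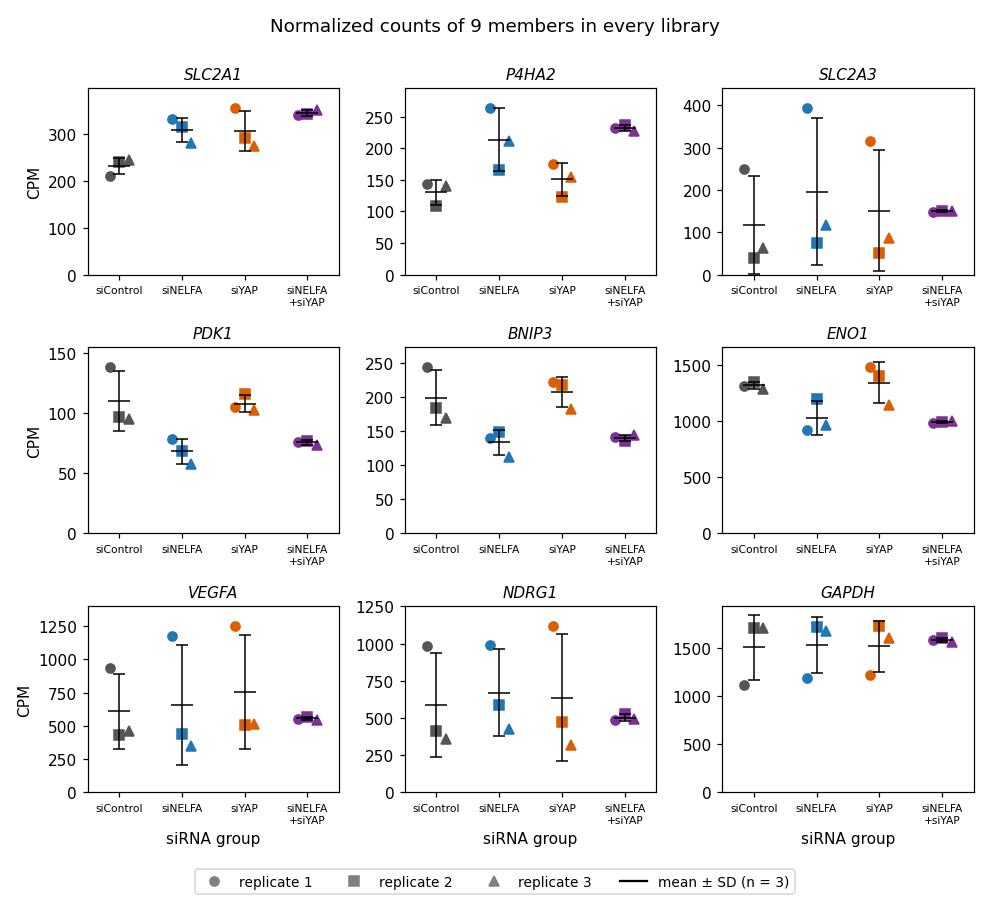
CPM of 9 members in every library, by siRNA group, with the mean ± SD of 3 libraries in black and the marker giving the replicate number. SLC2A1 is above the siControl range in all knockdown libraries, PDK1 and BNIP3 are below it in siNELFA and siNELFA+siYAP, and replicate 1 stands apart for SLC2A3, VEGFA, NDRG1 and GAPDH in 3 groups.

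The second comparison asked what loss of YAP1 did. No member passed the adjusted threshold in siYAP, with or without the block (0 of 35, against 0.00578% of 17296 genes without and 0.0173% with it), and 1 passed the nominal threshold (2.86%, against 1.3% of all genes, 0.752% higher and 0.549% lower). That member was SLC2A1, with a log2 difference of 0.42 ± 0.17 (edgeR adjusted p = 1) and higher in 3 of 3 pairs. With the block 8 members passed the nominal threshold (against 9.11% of all genes), 7 of them higher and BNIP3L lower. BNIP3L, a mitophagy receptor like BNIP3, ranged over 107 to 122 CPM in siYAP and 132 to 187 in siControl, a log2 difference of -0.41 ± 0.20 (edgeR adjusted p = 1). The siYAP libraries lay apart from siControl for 4 members (11.4%, against 7.8% of all genes, 3.6% above and 4.2% below), with SLC2A1, PFKP and PFKFB4 above and BNIP3L below. The direction was higher for 29 of the 35, with a median of 0.13 against -0.002 for all genes, and on the TPM scale for 21 of 35. Without siYAP replicate 1 it was higher for 19 of 35, with a median of 0.027, and without siControl replicate 1 for 27, with a median of 0.25. None of these members is called changed in siYAP. YAP1 itself passed the adjusted threshold in the same fit at a log2 difference of -2.67 ± 0.19 (edgeR adjusted p = 0.0162).

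The third comparison set the double knockdown against siControl. No member passed the adjusted threshold (0 of 35, against 0.428% of 17533 genes), and 9 passed the nominal one (25.7%, against 18.5% of all genes). SLC2A1, HK1, PKM and P4HA2 were the higher ones (8.27% of all genes), and HK2, ENO1, PDK1, CA9 and BNIP3 the lower (10.2%). The replicate block, whose numbers do not pair this group, also left 0 members called (0.0114% of all genes). The smallest edgeR adjusted p-values were 0.0654 for P4HA2, at a log2 difference of 0.83 ± 0.14, 0.069 for SLC2A1, at 0.58 ± 0.10, and 0.0862 for ENO1, at -0.41 ± 0.09. The groups did not overlap for 13 members, 6 above and 7 below (37.1%, against 29.7% of all genes, 15.1% above and 14.6% below).

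Among the enzymes, PKM stood at 1136, 1758 and 1772 (siControl), 1279, 2054 and 2128 (siNELFA), 1389.6, 1858 and 1931 (siYAP) and 2226, 2272 and 2236 (siNELFA+siYAP) CPM. The siNELFA+siYAP libraries were above every siControl library, and the log2 difference was 0.53 ± 0.17 (edgeR adjusted p = 0.169). The hexokinases, which trap glucose in the cell, differed in direction. HK1 was at 261, 314 and 349 CPM in siControl and 364, 395 and 381 in siNELFA+siYAP, with 0.31 ± 0.12 on the log2 scale (edgeR adjusted p = 0.253). HK2, the inducible form, was at 114, 134 and 116 and 93.8, 95.5 and 99.1, with -0.34 ± 0.11 (edgeR adjusted p = 0.184). In the single knockdowns HK1 ranged over 309.9 to 372 CPM in siNELFA and 300.2 to 347 in siYAP, and HK2 over 87.4 to 120.1 and 119 to 137, overlapping siControl in each case.

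CA9, a carbonic anhydrase that acidifies the cell's surroundings and is widely used as a marker of hypoxia, stood at 3.90, 4.82 and 4.95 (siControl), 3.89, 3.37 and 0.912 (siNELFA), 9.37, 10.7 and 3.84 (siYAP) and 2.46, 2.43 and 2.36 (siNELFA+siYAP) CPM. Its level was low throughout, and the siNELFA and siNELFA+siYAP libraries were below siControl while siYAP overlapped it. For siNELFA the gap was nearly nil, with 3.891 CPM in its replicate 1 against 3.899 in siControl replicate 1. On the TPM scale siNELFA+siYAP overlapped siControl, with 6.29 in its replicate 2 against 5.86 in siControl replicate 2. The log2 difference in siNELFA+siYAP was -0.92 ± 0.24 (edgeR adjusted p = 0.117). PDK1 differed by -0.54 ± 0.17 and BNIP3 by -0.51 ± 0.16 (edgeR adjusted p = 0.179 each).

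The result of this comparison turned on a single library. Without siControl replicate 1, which stood apart by its MALAT1 share and its CDH1 counts, 19 members were called, 13 higher and 6 lower (against 24.4% of 18587 genes, with 11.5% called higher). SLC2A1 at 0.52 ± 0.05 and P4HA2 at 0.91 ± 0.09 were then higher, with ENO1 at -0.40 ± 0.05 and PDK1 at -0.33 ± 0.07 lower (edgeR adjusted p = 5.67e-06, 3.26e-06, 1.46e-05 and 0.00262). As the siNELFA+siYAP libraries may be technical repeats, the p-values and calls of this fit may measure technical spread. SLC2A3 reached 1.56 ± 0.14 (edgeR adjusted p = 1.4e-06) in place of 0.35 ± 0.62. VEGFA, NDRG1, a stress-response gene, and P4HA1, the sister of P4HA2, were the called members that changed sign. They went from -0.14, -0.23 and -0.20 to 0.33, 0.39 and 0.23. Members not called changed sign too, such as EGLN3 from -0.91 to 0.16, CA12 from -0.54 to 0.19 and PGAM1 from 0.14 to -0.08. The split of the 35 members moved from 16 higher and 19 lower to 22 higher and 13 lower. In SLC2A3, VEGFA, NDRG1 and P4HA1, siControl replicate 1 was the highest siControl library.

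**Figure D3:**
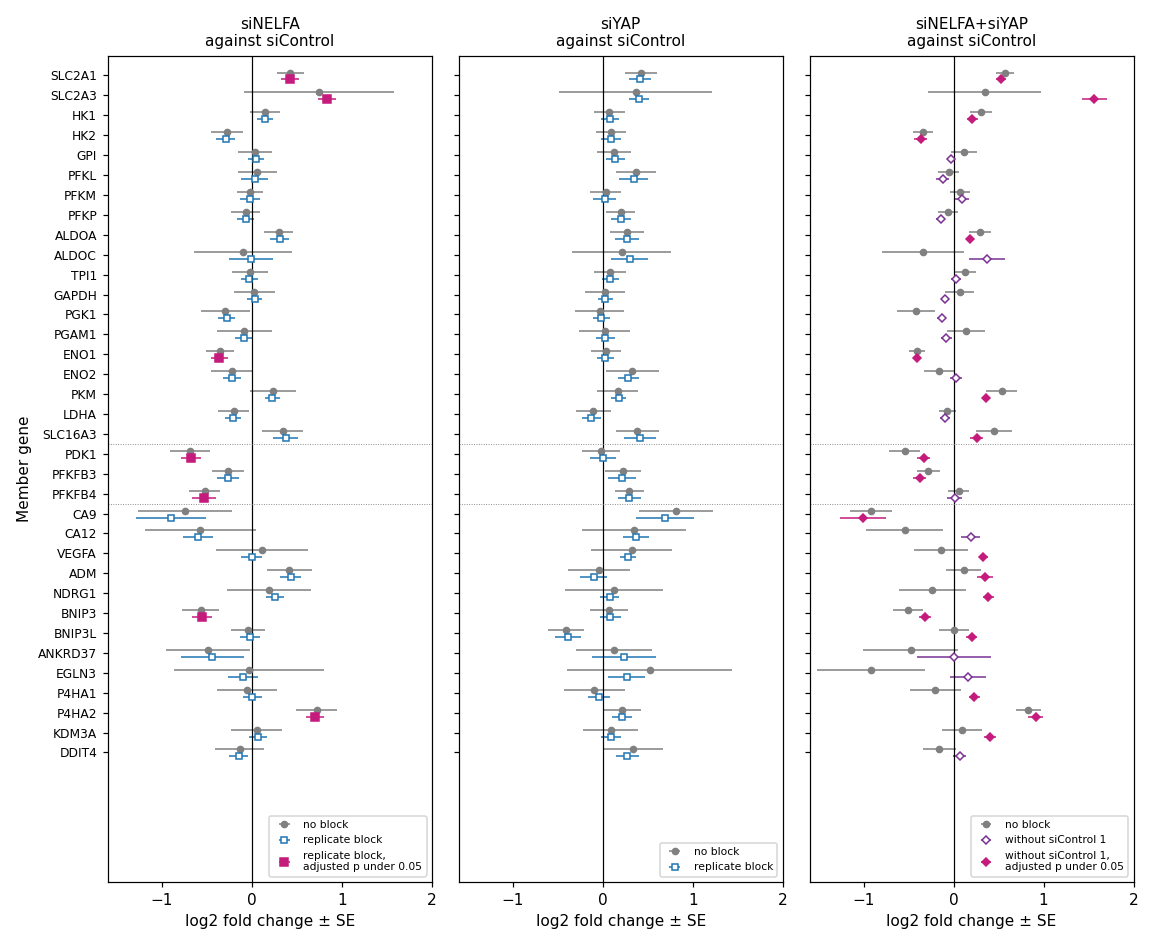
Log2 fold change ± SE of the 35 members (rows, by role) against siControl in the 3 comparisons. Grey circles are the fit without a block, blue squares the fit with the replicate block, violet diamonds the fit without siControl replicate 1, and filled pink symbols mark an adjusted p under 0.05 in the latter fits. With the block 7 members are called in siNELFA and 0 in siYAP, and 19 are called in siNELFA+siYAP once siControl replicate 1 is left out.

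Side by side, the 3 comparisons share the siControl libraries, so their values are not independent of each other. SLC2A1 differed by 0.43, 0.42 and 0.58 on the log2 scale for siNELFA, siYAP and siNELFA+siYAP, in that order. PDK1 differed by -0.68, -0.02 and -0.54, BNIP3 by -0.57, 0.07 and -0.51, and ENO1 by -0.35, 0.04 and -0.41. P4HA2 differed by 0.72, 0.22 and 0.83. PFKFB4 differed by -0.53, 0.30 and 0.06. The difference between siNELFA and siYAP was not tested.

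The remaining transport and enzyme genes were not called in any comparison with all libraries or with the block. SLC16A3 encodes MCT4, which carries lactate out of the cell. It ranged over 160.0 to 289.7 CPM in siControl, 281 to 302 in siNELFA, 277 to 333 in siYAP and 305 to 328 in siNELFA+siYAP, with log2 differences of 0.34, 0.38 and 0.45. Only the double knockdown lay wholly above siControl. ALDOA, the main aldolase, ranged over 497 to 660.2 CPM in siControl, 701 to 752 in siNELFA, 624 to 810 in siYAP and 719 to 744 in siNELFA+siYAP. Its log2 differences were 0.30, 0.27 and 0.29. In CPM siNELFA and siNELFA+siYAP lay wholly above siControl for ALDOA, and on the TPM scale both overlapped it. PGK1, a kinase that yields ATP, ranged over 503 to 828 CPM in siControl and 457 to 464 in siNELFA+siYAP, with -0.29, -0.03 and -0.42, and LDHA had -0.20, -0.11 and -0.07. PGK1 and LDHA carry 3 and 5 matches in the stretches printed above. The phosphofructokinases, which commit sugar to glycolysis, differed little in siNELFA, by 0.06 for PFKL, -0.02 for PFKM and -0.07 for PFKP. In siYAP the same genes had 0.37, 0.03 and 0.20.

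The other genes of the pathway were read from a list of 54, of which 51 passed the filter in each comparison. In siNELFA none was called without the block and 4 with it (7.84%, against the 5.21% of all genes). EPAS1, the HIF alpha subunit known as HIF2A, stood at 224, 149 and 182 CPM in siControl and 349, 226 and 269 in siNELFA, and rose with the block, at a log2 difference of 0.61 ± 0.09 (edgeR adjusted p = 0.00287). HIF1A was at 1259.9, 344 and 366 and 728, 311 and 264, and fell with the block, at -0.46 ± 0.11 (edgeR adjusted p = 0.0325). EPAS1 was apart from siControl in siNELFA, while HIF1A overlapped siControl and was lower than it at each replicate number. PDK4, a relative of PDK1, was at 22.6, 14.2 and 10.3 and 5.60, 5.99 and 4.90, and differed by -1.43 ± 0.22 with the block (edgeR adjusted p = 0.00353). BHLHE40, a HIF-induced repressor, rose with the block by 0.61 ± 0.11 (edgeR adjusted p = 0.00884). No gene of the list was called in siYAP with or without the block, and none in siNELFA+siYAP, where 10 of 51 passed the nominal threshold (19.6%, against 18.5%).

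The members also varied with the replicate number in siControl, siNELFA and siYAP, which share numbers 1 to 3. An edgeR test over these 9 libraries with the group as covariate called 23 of 35 members at an adjusted p of 0.05 (65.7%, against 45.4% of 18193 genes). Of the 13 HIF targets, 10 were called, all with replicate 1 above the mean of replicates 2 and 3, and of the 19 transport and enzyme genes 13 were called, 5 with replicate 1 higher and 8 with it lower. Of all genes, 23% were called with replicate 1 higher and 22.4% with it lower. None of the 3 regulators was called. The median difference of replicate 1 was 0.72 on the log2 scale for the HIF targets, -0.08 for the transport and enzyme genes and -0.01 for all genes tested. The size of the replicate 1 difference is given as a description, since the test took all 3 numbers together.

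EGLN3, the oxygen-sensing hydroxylase that is itself HIF-induced, showed the largest difference, 2.43. It stood at 34.3, 8.87 and 7.03 (siControl), 34.2, 8.83 and 5.53 (siNELFA), 55.8, 7.34 and 8.36 (siYAP) and 10.3, 7.01 and 9.11 (siNELFA+siYAP) CPM. Replicate 1 was above the other libraries of its group in siControl, siNELFA and siYAP, and the siNELFA+siYAP libraries were near the level of replicates 2 and 3. SLC2A3, given above, was next at 2.23.

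CA12 was at 113, 34.98 and 41.6 (siControl), 76.04, 31.96 and 18.98 (siNELFA), 139, 54.9 and 45.3 (siYAP) and 43.04, 46.3 and 40.96 (siNELFA+siYAP) CPM, a difference of 1.56. VEGFA was at 937, 433 and 461 (siControl), 1177, 442 and 352 (siNELFA), 1254, 505 and 518 (siYAP) and 556, 571 and 546 (siNELFA+siYAP) CPM, a difference of 1.33. NDRG1 was at 987, 413 and 362 (siControl), 993, 588 and 427 (siNELFA), 1119.9, 470.1 and 321 (siYAP) and 487, 527 and 493 (siNELFA+siYAP) CPM, a difference of 1.31. In these 3 genes too, replicate 1 was the highest library of its group in siControl, siNELFA and siYAP, and it did not stand apart in siNELFA+siYAP. The edgeR adjusted p-values for replicate number were 1.8e-08 for EGLN3, 1.89e-11 for SLC2A3, 1.51e-07 for CA12, 3.59e-08 for VEGFA and 4.35e-08 for NDRG1.

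Replicate 1 was above both other replicates in all 3 groups for 9 of the 13 HIF targets (against 24.2% of all genes) and for 4 of the 19 transport and enzyme genes, SLC2A3, ALDOC, PGK1 and ENO2. It was below both in all 3 groups for 7 of the 19 (against 26.7% of all genes), namely HK1, GPI, TPI1, GAPDH, PGAM1, PKM and LDHA. PGAM1, a phosphoglycerate mutase, differed by -0.77, PKM by -0.58 and GAPDH by -0.50. GAPDH stood at 1122, 1707 and 1708 (siControl), 1195, 1721 and 1679 (siNELFA), 1220.4, 1734 and 1605 (siYAP) and 1585, 1604 and 1561 (siNELFA+siYAP) CPM, so that in 3 groups its replicate 1 library was lowest, while the 3 siNELFA+siYAP libraries lay between. Of related genes, ALDOC was at 1.25 and ALDOA at 0.008, ENO2 at 0.64 and ENO1 at 0.02, SLC2A3 at 2.23 and SLC2A1 at 0.12, and HK1 and HK2 at -0.20 and -0.08. ALDOA and ENO1 were not called, both hexokinases were, and the differences between related genes were not tested.

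Of the machinery of oxygen sensing, 6 of 10 genes tested were called for replicate number, all with replicate 1 higher (60%, against 45.4% of all genes, 23% with replicate 1 higher). HIF1A stood at 1259.9, 344 and 366 (siControl), 728, 311 and 264 (siNELFA), 790.0, 305 and 295 (siYAP) and 289, 304 and 289 (siNELFA+siYAP) CPM, a difference of 1.54, and ARNT2, a partner subunit, differed by 1.40. Of 21 other HIF targets on the list 18 were called (85.7%, against the same 45.4%), 14 with replicate 1 higher, such as MXI1 at 1.70 and INSIG2 at 1.32, and 4 with it lower. ANGPTL4, a lipase inhibitor that HIF and the PPAR receptors induce, was at 1.52, 32.4 and 71.2 (siControl), 3.97, 41.3 and 92.8 (siNELFA), 4.54, 36.6 and 58.7 (siYAP) and 104, 89.4 and 92.8 (siNELFA+siYAP) CPM, and its replicate 1 difference was -3.94. TFRC, the transferrin receptor, and HMOX1, the heme oxygenase, differed by -1.29 and -1.18. The replicate 1 libraries that carried these differences are the ones with a MALAT1 share of 3.271 to 4.644%, and their lincRNA share was 4.296 to 5.834% against 1.462 to 1.838% elsewhere. Markers of epithelial and luminal cells moved with them too. Of 5 such markers that the line should lack or hold at a low level, CDH1, EPCAM and GATA3 were higher in all 3 replicate 1 libraries than in any of the other 9, ESR1 and PGR were at or near 0 throughout, and the summed level of the list was 44.67 to 69.81 CPM against 10.6 to 16.15 CPM. Of 3 markers of blood, endothelial and liver cells, PECAM1 was higher, at 5.29 to 8.88 CPM against 1.77 to 5.09 CPM, with PTPRC at 0 to 4 counts and ALB at 0. Of the 5 markers of the line itself, FN1 was higher, VIM and AXL were lower and CD44 and CAV1 overlapped. Whether these shares and markers had a part in the difference was not tested. The labels give no date or batch for any library.

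**Figure D4:**
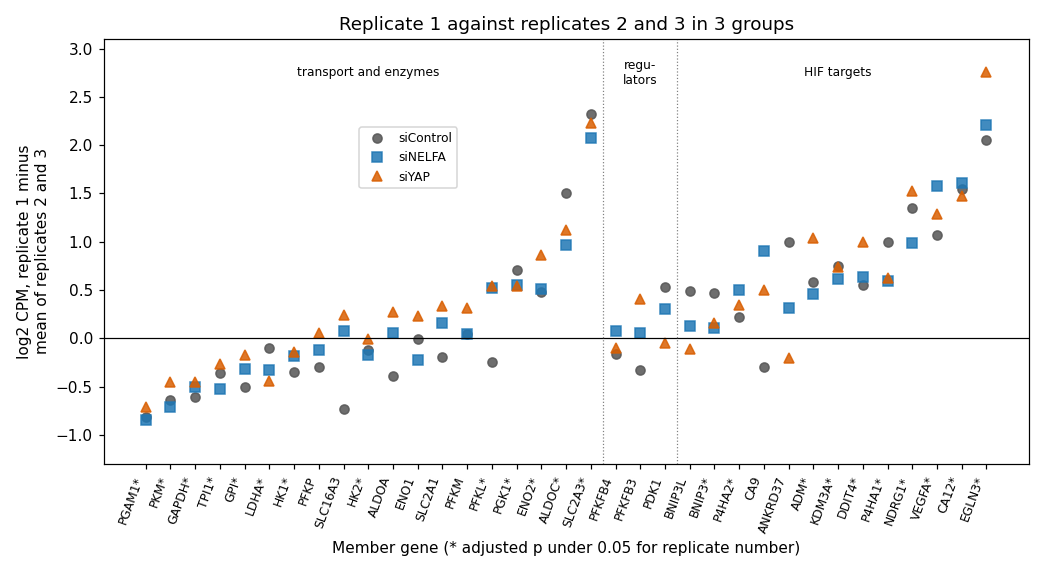
Log2 CPM of replicate 1 minus the mean log2 CPM of replicates 2 and 3 for the 35 members (horizontal axis, by role), with 1 point for each of siControl, siNELFA and siYAP. An asterisk marks the 23 members with an adjusted p under 0.05 for replicate number. All 3 points are above 0 for most HIF targets, and below 0 for GAPDH, PKM and PGAM1.

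The median coefficient of variation of a member over 3 libraries was 20.6% in siControl, 20.3% in siNELFA and 17.4% in siYAP, and 2.57% in siNELFA+siYAP. For the 13 HIF targets it was 32%, 29.3%, 43.7% and 4.28% in the same order, and for the 19 transport and enzyme genes 14.9%, 18.4%, 13.9% and 1.74%. The values of siControl, siNELFA and siYAP include the replicate 1 libraries that stood apart. Over all genes, replicates 2 and 3 of those groups differed by a chi-square per degree of freedom of 17.9, 14.6 and 11.3. Pairs of siNELFA+siYAP libraries differed by 2.78 to 14.3.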

How the data were processed

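The data are 12 total RNA libraries of MDA-MB-231, grouped by the titles in the labels. The authors aligned reads to GRCh38 with STAR and assigned them to genes with featureCounts, and deposited the raw counts. TPM values, also deposited, were made by the authors library by library. They served for levels between genes and as an alternative scale, and lines with the same gene identifier were summed. A further 12 per-sample columns (FPKM) were not used, since they rescale to the TPM values. Per the labels, cutadapt and FastQC preceded alignment.

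Knockdown and siControl libraries were set against each other in edgeR 4.0.16 (R 4.3.3; quasi-likelihood test, TMM factors, filterByExpr with minimum count 10, minimum total 15 and minimum proportion 70%) on the 6 libraries of both groups, with Benjamini-Hochberg adjustment over all genes tested. The standard error is the log2 fold change divided by the square root of F. The replicate number was tested over 9 libraries with the group as covariate. The tests were first run on simulated data. CPM values use TMM factors over the 12 libraries. Alternatives were RLE factors, DESeq2 1.42.0, no filter on low counts, a common fit of 12 libraries, a replicate block, limma 3.58.1 on log2 of TPM plus 1 or 0.1, and leaving out libraries.

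The replicate numbers come from the titles. The check took 12971 genes with a mean of 50 counts or more, and correlated across genes, which are not independent replicates, how far same-numbered libraries lay from their group means. The correlations were 0.65 to 0.889 within the siControl, siNELFA and siYAP set and -0.0512 to 0.0277 with siNELFA+siYAP. They were taken as pairs in that set only.

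The members, the other gene lists and the tests were chosen with earlier results of these data known. Values in every library are given for members past an adjusted p of 0.05 in any comparison, with or without the block, for those past a nominal p of 0.05 without it, for the 5 with the largest replicate 1 difference and for the most abundant member of each role. From the list of other pathway genes 1 gene is not reported here and was left out of its counts. Other genes are named where they are siRNA targets, passed the adjusted threshold with the block, or, in the replicate comparison, were chosen after their values were seen. Gene coordinates are GENCODE's on GRCh38 and upstream sequences are RefSeq's on GRCh38.p14, neither from the authors' annotation. Plots were made in Python 3.11.15 with matplotlib 3.10.9.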

Additional observations from a re-analysis of the deposited data

How the results depend on the processing

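With 1 library left out at a time, the median log2 difference of the 13 HIF targets ran from -0.38 (without siNELFA replicate 1) to 0.36 (without siControl replicate 1) for siNELFA, from -0.25 (without siYAP replicate 1) to 0.56 (without siControl replicate 1) for siYAP, and from -0.38 to 0.20 (without siControl replicate 1) in siNELFA+siYAP. Members past a nominal p of 0.05 numbered 2 to 6, 0 to 1 and 6 to 22, and members past an adjusted p of 0.05 numbered 0, 0 and 0 to 19, where the 19 came without siControl replicate 1. Of all genes, 1.85 to 6.36%, 0.695 to 1.86% and 10.1 to 34.8% passed the nominal threshold in these fits. Up to 0.0054%, 0.00554% and 24.4% passed the adjusted one. The members called for replicate number ran from 19 to 26 (against 34.2 to 47.9% of all genes). With replicate 1 left out of both groups, the nominal threshold was passed by 13, 4 and 19 members in the 3 comparisons, against 14.3%, 4.37% and 31.1% of all genes. In siNELFA+siYAP 15 passed the adjusted one (against 17.9% of all genes) and the HIF median was 0.21. In siNELFA+siYAP, VEGFA ran from -0.33 to 0.33, NDRG1 from -0.48 to 0.39 and P4HA1 from -0.38 to 0.23 with a library left out, each turning positive without siControl replicate 1, and VEGFA and NDRG1 were at 0.33 and 0.41 without replicate 1 of both groups. For replicate number, ENO1 changed sign to -0.0313 with no filter on low counts, and ran from -0.11 (without siYAP replicate 1) to 0.12 (without siNELFA replicate 1) with a library left out.

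With the replicate number as a block, 7 members were called in siNELFA (against 5.21% of all genes). The nominal threshold was passed by 18 in siNELFA and 8 in siYAP (against 20.2% and 9.11% of all genes). In siNELFA+siYAP, whose numbers do not pair with siControl, the block left 0 members called (0.0114% of all genes) and 8 past the nominal threshold (14.5%). Beside the members, the block changed the calls of EPAS1, HIF1A, PDK4 and BHLHE40 in siNELFA and of NELFA in siNELFA and siNELFA+siYAP.

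Among the other settings, DESeq2 called 3 members in siNELFA+siYAP (SLC2A1, ENO1 and P4HA2, against 2.91% of 32116 genes). The test with no filter on low counts called 1 (P4HA2, against 1.19% of 32116). Both settings keep genes with few counts, and the main fit had 17533 genes. Their shares, here and for siYAP, are therefore not on the same base as those of the main fit. The nominal count in siYAP was 0 with DESeq2, with no filter and with both TPM pseudocounts (against 0.988 to 2.13% of all genes). It was 3 with all 12 libraries in 1 fit (against 3.96%). On the TPM scale the median of the 19 transport and enzyme genes in siNELFA was -0.25 (pseudocount 1) and -0.26 (pseudocount 0.1), beside -0.19 and -0.22 for all genes, and the members split into 10 higher and 25 lower in siNELFA+siYAP. The cause of these shifts was not tested. Depth limits CA9 and ANKRD37 most.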

Other observations

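Outside the members, the pentose phosphate branch and the other genes of glucose metabolism also varied with the replicate number. Of 6 pentose phosphate genes 4 were called by edgeR, TKT with replicate 1 higher, by 0.58 on the log2 scale, and PGD, RPIA and TALDO1 with it lower, by -0.50, -0.79 and -0.27. Of 14 other genes of glucose metabolism tested 8 were called, 6 with replicate 1 higher, such as the lactate transporter SLC16A1 at 0.82 and the kinase PDK3 at 0.97, and 2 with it lower, the muscle enolase ENO3 at -0.67 and LDHB, the lactate dehydrogenase subunit of the heart, at -0.51. These shares, 66.7% and 57.1%, stand beside 45.4% of all genes.

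A test chosen after the data were seen asked whether the double knockdown differed from the sum of the single knockdowns on the log2 scale, in 1 edgeR fit over the 12 libraries. That fit has no block, although the replicate numbers were taken to pair siControl, siNELFA and siYAP. The spread between replicates therefore enters its error, and a missed threshold does not show that the effects add. No member passed an adjusted p of 0.05 and 1 passed a nominal p of 0.05, BNIP3L at 0.46. Of 18525 genes, 326 passed the nominal threshold and 0 the adjusted one.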
